A study of Homo sapiens with 24 samples.

Results

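The genes that changed in newly made RNA within the first hour of dexamethasone were examined in U2OS osteosarcoma cells, with 3 receptor lines pooled. The comparison used 12 of the 24 libraries of the series, 6 treated for 1 h and 6 untreated (0 h), and was defined by time and line. A gene was counted as a first-hour gene when it passed a Benjamini-Hochberg adjusted p of 0.05 in edgeR's quasi-likelihood test with the line as a blocking term. There were 180 such genes, or 0.801% of the 22479 tested, and 116 of them rose (0.516%) while 64 fell (0.285%).

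Each line stably carried the glucocorticoid receptor (GR, the product of NR3C1) with a HaloTag, a protein tag used to sort the cells by fluorescence. The wt line carried wt GR-HaloTag, the SoF line K492A GR-HaloTag, in which a hinge residue needed for RNA binding was mutated, and the Ctrl line R470A GR-HaloTag, a mutant with moderately reduced DNA binding that served as the control for the SoF mutant. Per the paper, K492A also lowered the DNA affinity of a receptor fragment, by less than its RNA affinity, and R470A left RNA affinity as in wt. All constructs were integrated by transposon on a vector named for the CMV promoter, and each line was a single sorted pool, so the construct and the pool cannot be told apart. The cells also keep a low level of their own GR. The 1 h dishes received 100 nM dexamethasone, a synthetic glucocorticoid, and the 0 h dishes 0.01% ethanol, after growth in charcoal-stripped serum, which is low in steroid hormones. All dishes received 200 µM 4-thiouridine for 1 h, which is built into RNA as it is transcribed, so that the labelled RNA could be purified and sequenced (4sU-seq). For the 1 h samples the labelling therefore spanned the whole treatment. How long the 0 h dishes were kept in ethanol is not stated, and each line had 2 libraries at each time.

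GR is held in complexes with chaperone proteins until a glucocorticoid binds it. The hormone-bound receptor gathers in the nucleus and binds glucocorticoid response elements, which are inverted repeats of a short core site, mostly in enhancers away from the genes they serve. It raises the transcription of genes for metabolic enzymes, feedback regulators and transcription factors, and lowers that of many genes driven by the AP-1 and NF-kB factors, among them cytokines and proteases.

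The 12 libraries held 8106036 to 15820806 deduplicated exon reads. NR3C1 was read in every library, at 564 to 3500 CPM at 0 h (CPM are counts scaled to a common library total). The reads of the transgene and of the endogenous gene were not separated in the table. Of the 9 osteoblast lineage markers examined, RUNX2, ALPL, COL1A1, SPARC and SPP1 averaged at least 1 CPM and SP7, COL1A2, BGLAP and IBSP did not. Their summed level was 690 to 1140 CPM at 0 h and 611 to 968 CPM at 1 h. Summed blood cell markers were at 0.82 to 2.74 CPM, with HBB at 0 counts, and summed epithelial markers at 14.8 to 32.9 CPM. Summed endothelial markers were at 4.98 to 8.92 CPM. Summed neural markers were at 33.8 to 56.5 CPM at 0 h and 45.7 to 53.9 CPM at 1 h, with SNAP25, a synaptic vesicle fusion protein, the highest at a mean of 27.3 CPM. No member of a marker list passed the test in either direction. The labels do not say that the 2 libraries of a group came from separate cultures. The p-values therefore measure the spread between these samples, which may be technical. Per the paper, labelled RNA was purified from replicate samples as pairs, to lessen variability of the purification. If each pair was the 2 libraries of a group, purification and group cannot be told apart, and the spread within a group leaves its variation out. In bulk RNA, fewer responding cells and less RNA per cell cannot be told apart.

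Some genes already known as glucocorticoid targets rose within the hour. Of 27 tested members of a list of common targets, 14 rose, none fell and 13 did not pass. Of all tested genes 0.516% rose and 0.285% fell. The median log2 change was 0.71 over the list and -0.001 over all tested genes. This list and the other gene lists were drawn up with earlier results of these data known, so their shares give no independent support. PDK4, a kinase that turns off pyruvate dehydrogenase, lay between 0.947 and 5.92 CPM at 0 h with a median of 2.83, and between 6.65 and 59.7 CPM at 1 h with a median of 38.1. The 6 libraries at 1 h were all above the 6 at 0 h, although Ctrl held the lowest values at both times. Its log2 change was 3.26 ± 0.22 (SE, n = 6 against 6, edgeR adjusted p = 3.59e-07).

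Other targets rose from very low levels. SCNN1A, which encodes the alpha subunit of the epithelial sodium channel, was at 0.237 to 0.905 CPM (median 0.496) at 0 h and at 5.1 to 15.3 CPM (median 8.82) at 1 h, a log2 change of 4.12 ± 0.28 (edgeR adjusted p = 3.59e-07). ZBTB16, a zinc finger repressor, went from 0.12 to 0.396 CPM (median 0.221) to 2.59 to 4.58 CPM (median 3.4), a log2 change of 3.81 ± 0.30 (edgeR adjusted p = 2.17e-06). The groups of neither gene overlapped, and the lowest 1 h library was several fold above the highest 0 h library for each. IP6K3, an inositol hexakisphosphate kinase, rose from a median of 1.23 to one of 4.96 CPM (log2 change 2.07), and ALOX5AP, which presents arachidonic acid for leukotriene synthesis, from 0.702 to 2.55 CPM (log2 change 1.76).

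Regulators that feed back on hormone signalling rose from higher levels and by less. PER1, a repressor of the circadian clock, had 77.3 to 127 CPM (median 110.0) at 0 h and 236 to 345 CPM (median 284) at 1 h. It changed by 1.40 ± 0.13 on the log2 scale (edgeR adjusted p = 2.44e-05), with no overlap between the groups. KLF9, a Krüppel-like repressor, rose by 1.15 ± 0.15, TSC22D3, a leucine zipper protein that binds NF-kB and AP-1, by 1.05 ± 0.17, and ZFP36, which speeds the decay of mRNAs with AU-rich elements, by 0.71 ± 0.12. SGK1, a kinase that acts on ion channels, rose by 0.63 ± 0.10.

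FKBP5, the co-chaperone that lowers the hormone affinity of GR, was among the smaller first-hour changes. It lay between 19.8 and 34.4 CPM (median 28.3) at 0 h and between 38.3 and 49.9 CPM (median 40.4) at 1 h, a log2 change of 0.62 ± 0.11 (edgeR adjusted p = 0.0128). All 1 h libraries were above all 0 h libraries, but the call was lost without wt 1 h replicate 1 (adjusted p = 0.0548) or SoF 1 h replicate 1 (adjusted p = 0.0561). BIRC3, an inhibitor of apoptosis, rose by 1.83 ± 0.30 (edgeR adjusted p = 0.00587), but its groups overlapped, at 32.5 to 66.7 CPM against 61.4 to 311 CPM. The 13 tested targets that did not pass included DUSP1, a MAP kinase phosphatase (log2 change 0.46 ± 0.12, adjusted p = 0.127), and NFKBIA, the NF-kB inhibitor (0.28 ± 0.15, adjusted p = 0.464).

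Among the metallothioneins, small metal-binding proteins, MT2A rose by 1.48 ± 0.21 and its neighbour MT1E by 1.60 ± 0.21. MT2A went from 82.4 to 270 CPM (median 166) to 370 to 509 CPM (median 459), and MT1E from 52.2 to 150 CPM (median 97.7) to 213 to 345 CPM (median 308). The groups did not overlap for either gene. Part of each sequence recurs elsewhere in the genome: 12.7% of the 31-base stretches of MT2A transcripts and 15.6% of those of MT1E occur in transcripts of another gene, so their counts are uncertain to that extent. MT1X, of the same family, had a log2 change of 0.89 and did not pass (edgeR adjusted p = 0.0734).

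**Figure D1:**
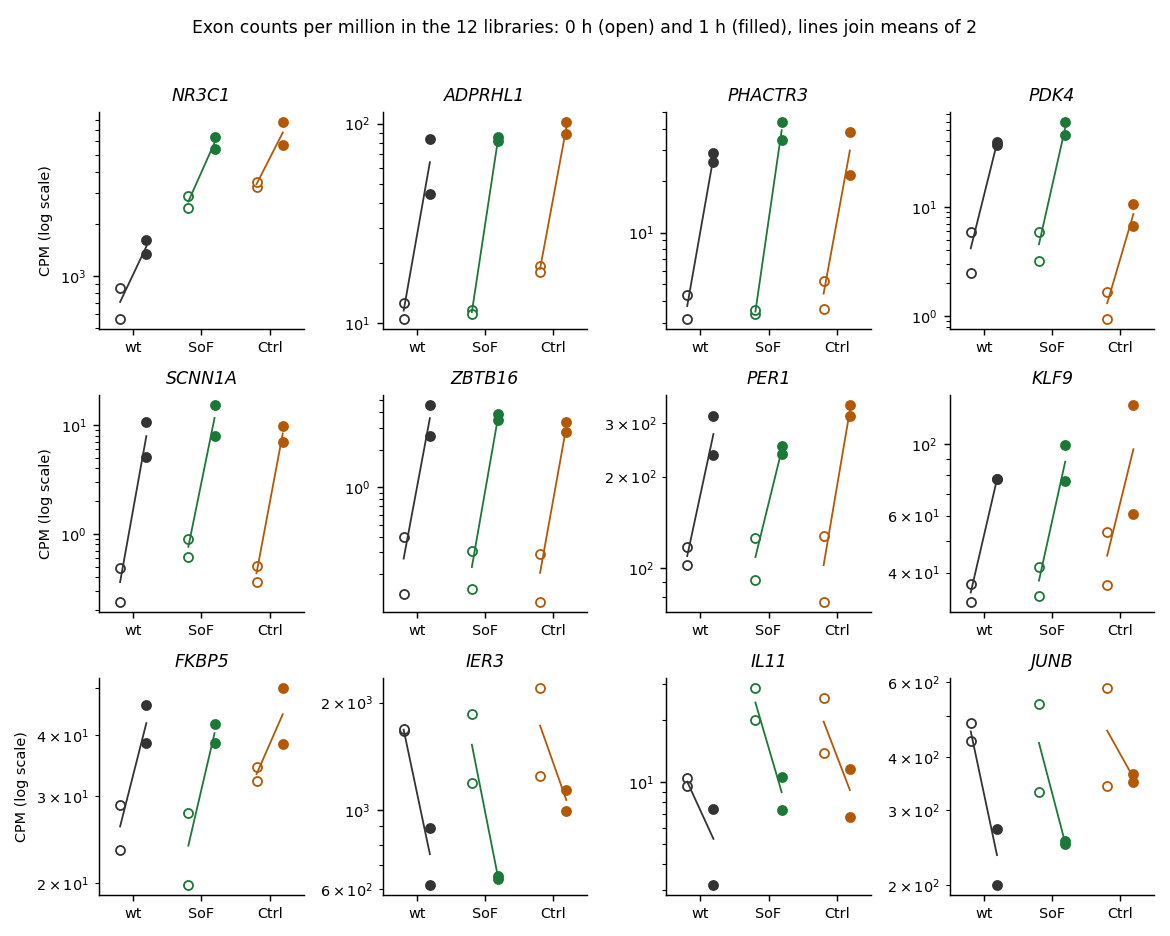
Each panel plots one gene's CPM (log axis) in the 12 libraries, by line (wt, SoF, Ctrl), with open circles for the 2 libraries at 0 h, filled circles for the 2 at 1 h and a line joining their means. In PDK4, SCNN1A, ZBTB16 and PER1 every filled circle lies above every open circle, in IER3 every filled circle lies below, and NR3C1 shifts upward from a lower level in wt.

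NR3C1 itself rose. The libraries of wt went from 564 and 847 CPM to 1330 and 1620 CPM, and those of SoF and Ctrl from 2470 to 3500 CPM to 5420 to 7760 CPM. In every line both 1 h libraries were above both 0 h libraries, while over the 3 lines the groups overlapped because wt was low at both times. The pooled log2 change was 1.06 ± 0.12 (edgeR adjusted p = 2.62e-04), and the lines gave 1.06 (wt), 1.13 (SoF) and 0.99 (Ctrl). Of the 20 receptor, chaperone and coregulator genes only NR3C1 and FKBP5 passed (10%, against 0.801% of all tested genes). HSP90AA1, the chaperone that holds GR ready for hormone, had a log2 change of -0.04 ± 0.09 (edgeR adjusted p = 0.869).

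The genes with the smallest p-values were not all on the target list. ADPRHL1, a relative of ADP-ribosylhydrolases known from heart muscle, ranked first. It was at 10.5 to 19.3 CPM (median 12.1) at 0 h and at 44.2 to 102 CPM (median 84.8) at 1 h, a log2 change of 2.56 ± 0.14 (edgeR adjusted p = 8.12e-08). PHACTR3, a regulator of protein phosphatase 1 and actin, went from 3.16 to 5.25 CPM (median 3.58) to 21.5 to 43.9 CPM (median 31.8), a log2 change of 3.02 ± 0.18 (edgeR adjusted p = 8.99e-08). No 1 h library of these genes overlapped the 0 h libraries. MYOSLID, a long noncoding RNA named for smooth muscle, rose from a median of 30.5 to one of 79.3 CPM (log2 change 1.38 ± 0.09).

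Enzymes and transporters of small molecules made up another set, here gathered after their values were seen. GMPR, which converts GMP to IMP, rose from 0.12 to 0.475 CPM at 0 h to 1.23 to 2.04 CPM at 1 h (log2 change 2.74 ± 0.32). SLC46A3, a lysosomal transporter, rose by 1.74 ± 0.16, SLC22A5, the carnitine transporter, by 1.20 ± 0.12, and SLC19A2, a thiamine transporter, by 1.03 ± 0.19. In a list of 18 tested metabolic targets, 3 rose (16.7%, against 0.516% of all tested genes) and none fell. Those that rose were PDK4, TXNIP, which binds thioredoxin and lowers glucose uptake (1.20 ± 0.20), and CASTOR1, an arginine sensor that inhibits mTORC1 (1.34 ± 0.18). Of the 31-base stretches of CASTOR1 transcripts 42.7% occur in ENSG00000248751, so its counts are uncertain to that extent. OLAH, a thioesterase of fatty acid synthesis, rose by 1.82 ± 0.26, and GGT5, which cleaves glutathione conjugates, by 1.75 ± 0.30.

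Genes of contractile and actin structures also appeared among those that rose, again named after their values were seen. TNNT2, cardiac troponin T, rose by 0.96 ± 0.16, MYL2, a myosin light chain of heart and slow muscle, by 1.06 ± 0.17, and XIRP1, an actin-binding protein of striated muscle, by 0.83 ± 0.18. ANKRD1, an ankyrin repeat protein of muscle, rose by 0.61 ± 0.12, from 1310 to 2200 CPM (median 1530) to 2220 to 2920 CPM (median 2470). Its call was lost when SoF 0 h replicate 1, either SoF 1 h library, Ctrl 0 h replicate 1 or Ctrl 1 h replicate 1 was left out (edgeR adjusted p = 0.0533 to 0.0847). RHOB, a small GTPase of actin and endosomes, rose by 0.81 ± 0.12 and was above its 0 h range in each 1 h library. On the fixed list of 20 SRF and actin genes ANKRD1 alone passed (5%, against 0.801% of all tested genes). On that list 16 members had a log2 change below 0, and the median was -0.27.

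Transcription factors and signalling genes that rose included KLF6, an immediate-early zinc finger factor (0.68 ± 0.12), SNAI2, a repressor of epithelial genes (0.92 ± 0.12), ZNF189, a zinc finger protein (1.23 ± 0.20), and WNT5A, a secreted Wnt ligand (0.70 ± 0.14). PMAIP1, a BH3-only protein that promotes apoptosis, rose by 0.61 ± 0.10. CCL20, a chemokine on the list of genes commonly repressed by glucocorticoids, rose by 1.00 ± 0.18 with overlapping groups, at 15.1 to 30.2 CPM against 18.0 to 73.1 CPM.

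Further rising genes belong to epithelia and to the cell surface, again named after their values were seen. On the epithelial marker list none of the 5 tested members passed. Of these, 2 had a log2 change above 0 and 3 below, with a median of -0.14. KRT6A, a keratin, was at 0 to 0.475 CPM (median 0.249) at 0 h. At 1 h it was at 0.842 to 1.14 CPM (median 1.06), without overlap. Of the 31-base stretches of its transcripts 44.1% occur in another gene, 38.7% in KRT6C, so its counts are uncertain to that extent. SCEL, a protein of the cornified envelope, rose by 0.83 ± 0.17, LAD1 by 1.99 ± 0.24 and DMBT1, a secreted scavenger receptor, by 0.98 ± 0.12. EXTL1, a glycosyltransferase of heparan sulfate synthesis, rose by 2.16 ± 0.37, B3GNT5, which extends lacto-series glycolipids, by 0.65 ± 0.14, and DSEL, of dermatan sulfate synthesis, by 0.45 ± 0.10. Signalling adaptors and receptors rose as well: GRAP2, an adaptor of lymphocytes (1.35 ± 0.19), ADRA1B, an adrenergic receptor (0.86 ± 0.18), and CYTH1, which activates ARF GTPases (0.59 ± 0.09). CDC42EP3, a CDC42 effector, had the smallest change of the 116, at 0.41 ± 0.09.

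**Figure D2:**
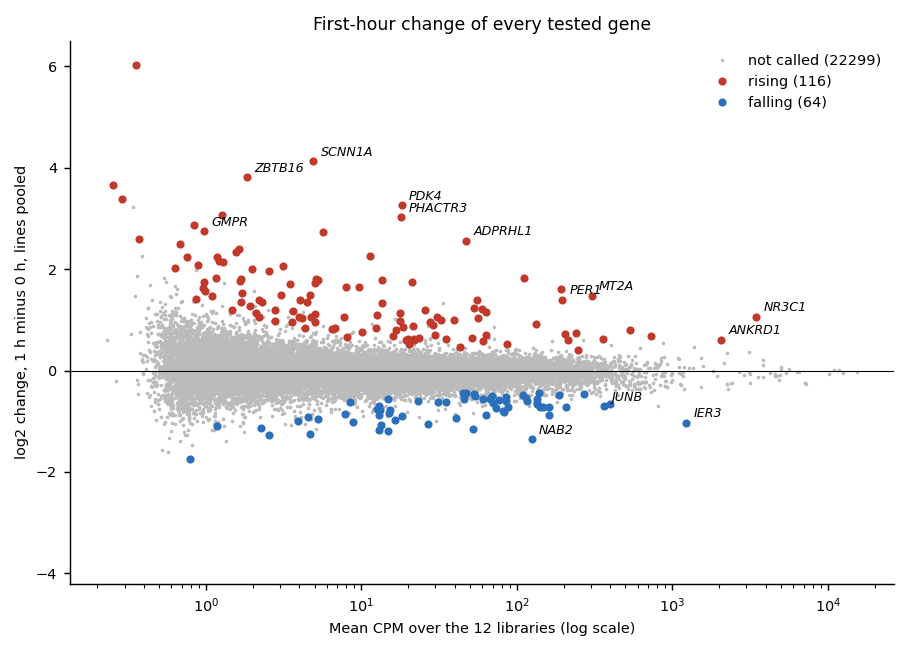
Each point is 1 of the 22479 tested genes, with its mean CPM over the 12 libraries (log axis) and its log2 change at 1 h with the lines pooled, in red for the 116 rising, blue for the 64 falling and grey for the genes not called. Rising genes reach lower levels and larger changes, with a median mean level of 7.28 CPM and a median change of 1.22, while falling genes have a median level of 52.8 CPM and a median change of -0.72.

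The genes that fell had a median log2 change of -0.72, against 1.22 for the genes that rose, and 13 of 64 fell by at least 1 on the log2 scale, against 77 of 116 that rose by at least 1. Only 8 of the 64, IER3, IER3-AS1, HCG20, SPHK1, TM4SF1, IFFO2, ATOSB and LAYN, kept the call whichever of the 12 libraries was left out. IER3, an early-response gene that protects cells from apoptosis, had the smallest p. It was at 1190 to 2200 CPM (median 1680) at 0 h and at 617 to 1140 CPM (median 771) at 1 h, and no 1 h library reached the 0 h range. Its log2 change was -1.03 ± 0.16 (edgeR adjusted p = 0.00319). IER3-AS1 lies on the other strand and shares 49.9% of its exon bases with IER3, so the reads of the pair may be mixed where strand was not used. It fell by 1.25 on the log2 scale.

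Signalling ligands and their regulators were among those that fell. IL11, a cytokine of the IL-6 family, was at 9.65 to 28.8 CPM (median 17.0) at 0 h and 3.17 to 11.6 CPM (median 7.38) at 1 h. The pooled groups overlapped, but in each line both 1 h libraries were below both 0 h libraries, and the log2 change was -1.17 ± 0.21 (edgeR adjusted p = 0.0127, and 0.0561 without SoF 1 h replicate 1). IL24, of the IL-10 family, changed by -0.97 ± 0.21, WNT10A, a Wnt ligand, by -0.77 ± 0.14, HBEGF, a ligand of the EGF receptor, by -0.74 ± 0.15, and TNFSF15, a TNF family ligand, by -0.56 ± 0.11. PLAU, the urokinase protease, changed by -0.88 ± 0.19. Without wt 1 h replicate 1 the call of WNT10A was lost (adjusted p = 0.0588). Those of HBEGF (adjusted p = 0.051 to 0.0777) and PLAU (0.0509 to 0.12) were lost in 7 and 9 of the 12 fits with 1 library left out, in each case also without wt 0 h replicate 1, wt 1 h replicate 1, SoF 0 h replicate 1, either SoF 1 h library, Ctrl 0 h replicate 1 or Ctrl 1 h replicate 2, and for PLAU further without wt 0 h replicate 2 or Ctrl 1 h replicate 1. Of 14 tested cytokines and proteases known to be repressed by glucocorticoids, IL11 and PLAU fell, CCL20 rose and 11 did not pass. The share called was 21.4%, against 0.801% of all tested genes. CCL2, the monocyte chemokine, did not pass with a log2 change of -0.85 ± 0.20 (adjusted p = 0.0727), and the list's median was -0.44.

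Some genes of the AP-1 and MAP kinase pathways were also among those that fell. On a list of 18 tested MAP kinase and EGF receptor feedback genes, DUSP2 and HBEGF fell (11.1%, against 0.285% of all tested genes) and 16 did not pass. Of the 18, 5 had a log2 change above 0 and 13 below, with a median of -0.20. JUNB, an AP-1 subunit, was at 331 to 581 CPM (median 459) at 0 h and 200 to 365 CPM (median 262) at 1 h, a log2 change of -0.70 ± 0.15 (edgeR adjusted p = 0.0336). NAB2, a corepressor of EGR factors, was at 110 to 289 CPM (median 159) and then 34.1 to 134 CPM (median 60.8), a change of -1.35 ± 0.29 (adjusted p = 0.04). Each group reached into the range of the other for both genes. Left-out libraries ended the call of JUNB in 9 of 12 fits (adjusted p = 0.0536 to 0.132), all but SoF 0 h replicate 2, Ctrl 0 h replicate 2 and Ctrl 1 h replicate 2, and that of NAB2 in the same 7 as for HBEGF (0.0844 to 0.149). DUSP2, a MAP kinase phosphatase, changed by -0.72 ± 0.15 with the call lost in the same 9 fits as for JUNB, MAP2K3, a kinase that activates p38, by -0.64 ± 0.13, and MAPKAPK2, a kinase downstream of p38, by -0.48 ± 0.11. The groups overlapped for DUSP2 and MAPKAPK2 but not for MAP2K3, at 139 to 197 CPM against 59.8 to 137 CPM.

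On the list of 30 immediate-early genes 10% were called, against 0.801% of all tested genes. KLF6 rose, JUNB and IER3 fell and 27 did not pass, with 22 of the 30 below 0 and a median of -0.39. EGR1 (log2 change -0.11 ± 0.15, adjusted p = 0.76), FOS (0.23 ± 0.19, adjusted p = 0.625) and MYC (-0.05 ± 0.10, adjusted p = 0.853) were among those that did not. In the NF-kB feedback list of 15, 13.3% were called: BIRC3 rose and NFKBIE, an inhibitor of NF-kB, fell by 0.81 on the log2 scale. The call of NFKBIE was lost in 9 of 12 fits with 1 library left out (edgeR adjusted p = 0.0516 to 0.154). These were all but the fits without SoF 0 h replicate 2, Ctrl 0 h replicate 2 or Ctrl 1 h replicate 1. NFKBID, a nuclear relative of NFKBIE, fell by 0.84. SPHK1, which makes sphingosine 1-phosphate, fell by 1.01, and TM4SF1, a tetraspanin-like membrane protein, by 0.50, both without overlap between the groups.

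Other falling genes act at the membrane, in the matrix and in transcription. EFNA1, an ephrin ligand, had medians of 18.7 CPM at 0 h and 6.78 CPM at 1 h, and CD83, a marker of activated dendritic cells, at 26.9 to 45.0 CPM (median 36.3) and then 8.54 to 30.6 CPM (median 17.0). The groups overlapped for both, with log2 changes of -1.07 ± 0.23 and -1.04 ± 0.21. LFNG, a glycosyltransferase that modifies Notch, changed by -0.89 ± 0.16, CAVIN1, a coat protein of caveolae, by -0.66 ± 0.13, LAMB3, a laminin subunit, by -0.72 ± 0.14 and TGFBI, a matrix protein, by -0.50 ± 0.11. MAFK, a small Maf factor, changed by -0.71 ± 0.14 with no overlap, FOXD1, a forkhead factor, by -0.60 ± 0.13 and NKX3-2, a homeobox factor, by -0.75 ± 0.14. KCNA1, a potassium channel, and ENSG00000256654, which spans it on the same strand, fell together, by 0.94 and 1.14 on the log2 scale. Of the 31-base stretches of transcripts, 6.71% for KCNA1 and 5.57% for ENSG00000256654 occur in the other gene, so these may not be separate changes.

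Several groups gave no called member. With 0.801% of all tested genes called, most lists this short would hold none, so this says little about these families. None of 19 BMP and TGF-beta feedback genes passed (median -0.15), with INHBA at 0.45 ± 0.19 (adjusted p = 0.372) and ID1 at -0.39 ± 0.24 (adjusted p = 0.518). None of 15 SOCS, STAT and BCL6 genes passed (STAT3 -0.19 ± 0.07, adjusted p = 0.333, SOCS4 0.08 ± 0.11, adjusted p = 0.776). The same held for the 11 heat shock genes (median -0.13, with DNAJB1 at -0.25 ± 0.11 and HSPD1 at 0.10 ± 0.10) and the 13 mitochondrially encoded mRNAs (median -0.07, with MT-CO1 at -0.07 ± 0.13 and MT-ND2 at 0.02 ± 0.12). Of 17 clock genes PER1 alone passed (5.88%), and BHLHE40 was at -0.49 ± 0.17 (adjusted p = 0.284). Of 14 KLF factors, KLF6 and KLF9 passed (14.3%), and CCN1, on the SRF and immediate-early lists, was at -0.03 ± 0.12.

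Taken line by line, the 180 genes moved the same way in wt, SoF and Ctrl, as the pooled call favours. A stricter count asked that both 1 h libraries lie on the same side of both 0 h libraries within each line. It held for 102 of the 116 rising and 31 of the 64 falling genes, where 1.12% and 0.872% of all tested genes showed such a separation upward and downward with no test. All 6 libraries at 1 h lay above all 6 at 0 h for 78 rising genes and below for 16 falling genes. Over all tested genes, called or not and with no test, 0.427% had such a separation upward and 0.151% downward. Both separations use the libraries that chose the 180 genes, so higher shares among those genes were favoured in advance and add no support.

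Within a single line, with 2 libraries against 2, few genes passed. There were 12 in wt (0.0534%), 13 in SoF (0.0578%) and 8 in Ctrl (0.0356%), all rising, and each of them was called in the pooled fit as well. ADPRHL1, PHACTR3, MYOSLID, SCNN1A, TPRG1-AS1 and ZBTB16 passed in every line. No gene fell in a single line by edgeR, where 1542, 965 and 252 genes had an unadjusted p under 0.05 in wt, SoF and Ctrl. With no change, a share of 0.05 of the tested genes would be expected, which is more than in SoF and Ctrl and less than in wt. Without wt 0 h replicate 1 or 2, wt had 4 and 6 genes. Leaving out any library of its own left SoF with 7 or 8 genes and Ctrl with 2 or 3.

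The median change of the rising genes was 1.28 (wt), 1.36 (SoF) and 1.03 (Ctrl), and that of the falling genes -0.85, -0.84 and -0.45. Ctrl had the smallest change of the 3 lines in 68 of 116 rising and 57 of 64 falling genes. The share over all tested genes was not taken, and these genes are read from the same few libraries. Whether the order holds with a Ctrl library left out was not tested. For a single gene this order was not supported by a test. In edgeR's joint line by time test none of 22479 genes passed (smallest adjusted p = 1) and 116 had an unadjusted p under 0.05. DESeq2's likelihood ratio test also called 0. With no difference a share of 0.05 would be expected, and 116 is well below it, so the edgeR test was conservative here. Its lack of calls therefore says little on whether the lines respond alike. The difference between SoF and wt had a median of 0.17 over the rising genes, with a median standard error of 0.48 per gene, so differences of that size were not detectable gene by gene. For the falling genes the median difference between Ctrl and wt was 0.46.

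**Figure D3:**
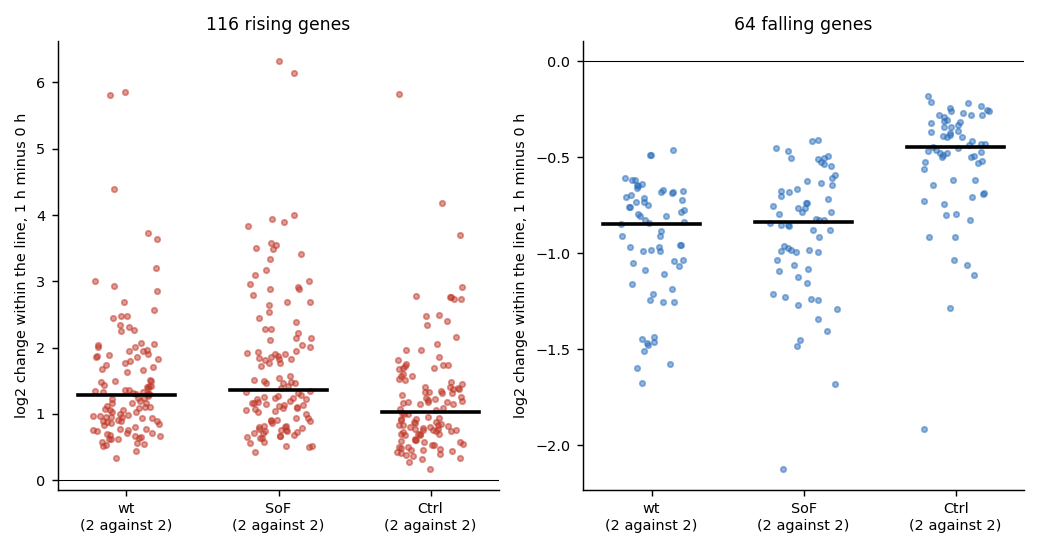
Each point is a first-hour gene's log2 change within wt, SoF or Ctrl (2 libraries at 1 h against 2 at 0 h), for the 116 rising genes on the left and the 64 falling genes on the right, and black bars mark medians. All points lie on the side of 0 given by the pooled fit, and the medians of Ctrl (1.03 and -0.45) are nearest to 0.

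Both counts depended on single libraries. Leaving out each library in turn gave 69 to 241 rising and 11 to 432 falling genes. Without Ctrl 0 h replicate 2, the library with the lowest total, there were 241 rising and 432 falling genes. Fewer rose without SoF 1 h replicate 1 (69) or wt 1 h replicate 1 (74). The falling genes numbered 11 without either of these libraries, 19 without wt 0 h replicate 1 and also without SoF 1 h replicate 2, 17 without Ctrl 0 h replicate 1, 24 without SoF 0 h replicate 1 and 35 without wt 0 h replicate 2. Of the 116 rising genes, 69 kept the call without SoF 1 h replicate 1 and 73 without wt 1 h replicate 1, and 65 kept it in each of the 12 fits. Of the 64 falling genes 11 kept it without either library and 8 in each fit.

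Among the rising genes named here and not yet given with this limit, the call was lost in 3 of the 12 fits for ITGA10, CPNE7 and KRT6A, in 4 for OR7A5 and ENSG00000266718, in 5 for WNT5A and CDK5R1, in 6 for SCEL, in 7 for ADRA1B, in 9 for XIRP1, B3GNT5, DSEL and LINC01618 and in 10 for CDC42EP3. Among the falling genes it was lost in 1 fit for KCNA1, in 3 for MAFK, LFNG and NKX3-2, in 4 for LAMB3, in 5 for KCTD11 and CAVIN1, in 6 for ENSG00000256654 and in 7 for MAP2K3, CD83 and SERTAD1. It was lost in 8 fits for PPP1R18, FOXD1, EFNA1 and IL24, in 9 for FLOT1, SPATA2L, KRT17P1, KRT17P2, TNFSF15 and SERTAD3, in 10 for CRABP2, TGFBI and NFKBID and in 11 for MAPKAPK2. All 180 genes kept the sign of the pooled change in these fits.

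Replicate 1 libraries alone gave 2995 rising and 3812 falling genes and replicate 2 libraries alone 47 and 2. Wherever a line was left out, the count of falling genes changed as well, to 3 without wt, 0 without SoF and 87 without Ctrl, and that of rising genes to 42, 32 and 93.

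First-hour genes often lay beside each other. Within 100 kb, 21 of 116 rising genes (18.1%) had another rising gene, against 1.63% of all tested genes, and 11 of 64 falling genes (17.2%) had another falling gene, against 1.73%. Across directions 1 rising and 1 falling gene were neighbours, CPNE7 and SPATA2L. In all, 34 genes formed 15 such clusters, of which 10 held rising genes alone and 4 falling genes alone. Genes that overlap or share transcripts can count the same reads, so these shares are a description. Coordinates are from GENCODE release 44 on hg38.

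The largest cluster held 5 falling genes at chr6:30676389-30792250, in the major histocompatibility region: PPP1R18, FLOT1, IER3-AS1, IER3 and HCG20. PPP1R18, which binds protein phosphatase 1, changed by -0.66 ± 0.13, FLOT1, a lipid raft scaffold, by -0.46 ± 0.10 and HCG20, a noncoding RNA, by -0.88 ± 0.14. Each had all 1 h libraries below all 0 h libraries. At chr19:40421589-40444335 the cell cycle regulators SERTAD1 and SERTAD3 fell together (-0.79 and -0.52), and at chr17:7351889-7357219 KCTD11, an adaptor for a ubiquitin ligase, and TMEM95, a sperm membrane protein, did so (-1.14 and -1.28). The call of TMEM95 was lost in 8 of 12 fits with 1 library left out (adjusted p = 0.0636 to 0.0989), those without a wt library, SoF 0 h replicate 1, a SoF 1 h library or Ctrl 0 h replicate 1. PHLDA2, an imprinted gene of placental growth and one of the largest falls (-1.20 ± 0.24), lay in no cluster, and its call was also lost in 8 of 12 fits (adjusted p = 0.0513 to 0.108), all but those without wt 0 h replicate 2, SoF 0 h replicate 2, Ctrl 0 h replicate 2 or Ctrl 1 h replicate 1.

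Rising neighbours often joined a coding gene and a noncoding one. SLC22A5 lay with MIR3936HG, a host transcript of a microRNA (log2 change 0.88 ± 0.11), at chr5:132311285-132395613, and SLC19A2 with ENSG00000213062 (1.14 ± 0.12) at chr1:169463909-169500182. CDK5R1, an activator of the kinase CDK5, rose by 0.64 ± 0.13 beside ENSG00000266718 (1.54 ± 0.30). TXNIP lay with ITGA10, an integrin alpha subunit (1.05 ± 0.20), and ENSG00000244619 at chr1:145891208-145996579, although 29.9% of the exon bases of ENSG00000244619 overlap ITGA10 on the other strand. LAD1, a basement membrane protein (1.99 ± 0.24), lay beside TNNT2, and MT1E beside MT2A. Of the 31-base stretches of transcripts, 14.4% for LAD1 and 15.5% for TNNT2 occur in another gene, most of them in ENSG00000286600.

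The noncoding RNA ENSG00000286463 lies inside ZBTB16, at chr11:114159791-114161166, on the other strand. It had 0 counts in all 6 libraries at 0 h and 44 counts at 1 h, at 0.235 to 1.12 CPM. Against a floor of 3 counts over the 6 libraries (0.0414 CPM), it was at least 17.2-fold higher at 1 h. Of its exon bases 5.02% overlap ZBTB16 exons. TPRG1-AS1, another antisense RNA, rose from 0.83 to 2.83 CPM (median 1.25) to 7.48 to 12.9 CPM (median 9.4), with no overlap and a log2 change of 2.73 ± 0.21.

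Transcripts known by identifier alone were also among the smallest p-values. ENSG00000287692 went from 2.16 to 6.02 CPM to 4.61 to 35.5 CPM (log2 change 2.25 ± 0.19), with overlap between the groups because Ctrl was low, ENSG00000267882 from 1.8 to 2.86 CPM to 4.94 to 11.4 CPM (1.81 ± 0.17) and ENSG00000289616 from 0.146 to 0.554 CPM to 0.706 to 4.32 CPM (3.06 ± 0.45). A set of 8 rising pseudogenes, 7 of them on chromosome 9, rose together and are near copies of each other. ENSG00000182021 rose by 1.79 ± 0.25, ENSG00000176134 by 1.65 ± 0.27 and ENSG00000261522 by 2.13 ± 0.31, and 80.2% to 100% of the 31-base stretches of the 8 transcripts recur in another gene. Their reads cannot be assigned to a single copy, so they may count as a single change. The falling KRT17P1 and KRT17P2 are copies in the same sense.

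By type, 64 of the 116 rising genes (55.2%) were protein-coding, 36 were long noncoding RNAs and 14 pseudogenes (12.1%), against 63.8%, 21.5% and 9.76% of all tested genes. The rising pseudogenes include the set of near copies above, which may count as a single change, so their share is not read as an excess. Of the falling genes 89.1% were protein-coding and 6.25% long noncoding RNAs. The falling coding genes were short, with a median span on the genome of 8350 bp (quartiles 4400 and 15500 bp) against 23400 bp for the rising and 35000 bp for all tested coding genes. Spans under 10 kb made up 54.4% of the falling, 28.1% of the rising and 18.5% of the tested coding genes. The falling coding genes had a median of 6 exon blocks, against 9 and 11.

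**Figure D4:**
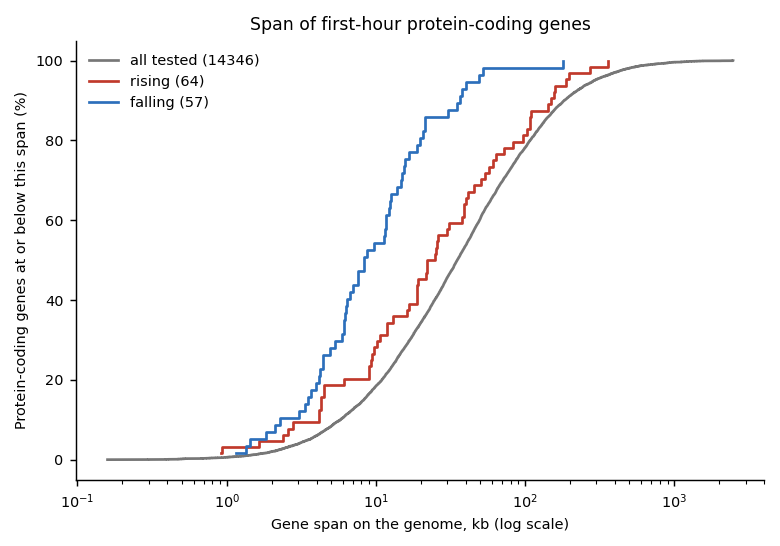
The curves give the percentage of protein-coding genes whose span on the genome (kb, log axis) is at or below each value, for all 14346 tested (grey), the 64 rising (red) and the 57 falling (blue) coding genes. The blue curve lies to the left, with a median of 8350 bp against 35000 bp for all tested coding genes.

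Promoter letters were compared over RefSeq windows of 250 bases before to 50 after the gene start (GRCh38.p14), which were at hand for 62 rising, 50 falling and 12654 tested genes. Matches on both strands were counted. The full glucocorticoid response element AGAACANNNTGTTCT was in 0 of the 12654 tested windows and in 1 of the 27305 windows of the table. A looser form, GNACANNNTGTNC, was in 2 rising windows (3.23%), no falling window and 0.205% of tested windows. The core site AGAACA, which is part of the full element, was in 13 of the 62 rising and 3 of the 50 falling windows (6.0%), against 9.7% of tested windows. The AP-1 motif TGANTCA was in 9 rising (14.5%) and 9 falling windows (18.0%), against 5.07%.

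The TATA box TATAAA was in 11.3% of rising and 8.0% of falling windows, against 6.45%, the E-box CACGTG in 8.06% and 6.0%, against 9.68%, and the CRE TGACGTCA in none of either, against 3.19%. A match is a match of letters, and a window without one says nothing of sites outside it.

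The looser element was found in the windows of TXNIP at chr1:145996727-145996769 and of OR7A5, an olfactory receptor gene, at chr19:14835326-14835368, both on the minus strand. They are shown with the matching letters in capitals because they are the only members with a 2-sided element.
TXNIP: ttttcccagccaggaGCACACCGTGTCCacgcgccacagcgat
OR7A5: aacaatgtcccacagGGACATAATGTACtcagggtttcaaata

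The core site, in capitals, is shown for the targets PDK4 (chr7:95596742-95596766, minus strand), FKBP5 (chr6:35728563-35728598, minus) and IP6K3 (chr6:33746990-33747025, minus).
PDK4: tcccTGTTCTtcccaccctttttcc
FKBP5: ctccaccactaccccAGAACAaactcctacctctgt
IP6K3: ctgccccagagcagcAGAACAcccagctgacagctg

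The AP-1 motif, in capitals, is shown for the rising MT2A (chr16:56608465-56608501, plus strand), MYOSLID (chr2:207239608-207239644, plus) and ANKRD1 (chr10:90921261-90921297, minus), and for the falling IL11 (chr19:55370538-55370574, minus), SPHK1 (chr17:76383183-76383219, plus), TNFSF15 (chr9:114792629-114792665, minus), KCTD11 (chr17:7351968-7352004, plus) and MAP2K3 (chr17:21284655-21284691, plus), so that both directions can be compared.
MT2A: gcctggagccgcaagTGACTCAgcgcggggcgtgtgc
MYOSLID: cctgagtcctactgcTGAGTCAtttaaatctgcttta
ANKRD1: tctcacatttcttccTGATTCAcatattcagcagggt
IL11: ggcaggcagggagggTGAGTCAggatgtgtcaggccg
SPHK1: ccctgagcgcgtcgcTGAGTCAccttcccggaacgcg
TNFSF15: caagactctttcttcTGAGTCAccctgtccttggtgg
KCTD11: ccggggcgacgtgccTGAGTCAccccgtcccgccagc
MAP2K3: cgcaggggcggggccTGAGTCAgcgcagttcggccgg

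Levels at 2 h and 3 h were read from all 24 libraries. These changes share the 0 h libraries with the first hour, and the members were chosen for 1 h, so the values are given side by side with no test. The rising genes kept a median log2 change of 1.25 after 2 h and 1.04 after 3 h, with 1.19 for the first hour in the same fit. Of 116, the highest mean occurred at 1 h for 50, at 2 h for 38 and at 3 h for 28. The falling genes went from a median of -0.72 in the first hour to 0.12 after 2 h and to -0.14 after 3 h. Of 64, the lowest mean occurred at 1 h for 48, at 2 h for 1 and at 3 h for 15.

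Named genes followed different courses. SCNN1A climbed to a log2 change of 5.81 at 2 h and was near it at 3 h (5.89, with means of 29.7 and 30.9 CPM). ZBTB16 reached 4.93 and 6.10 at 2 h and 3 h and FKBP5 1.90 and 3.08, so both were higher at each later time. PER1 was at 1.83 at 2 h and lower at 3 h. KLF6 stood at -0.03 and -0.23, ANKRD1 at -0.47 and -0.75, and NR3C1, above its 0 h level at 1 h, at -0.41 and -1.04.

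Among the falling genes, NAB2 was at 1.86 at 2 h and 0.99 at 3 h, HBEGF at 1.41 and 1.72, and SPHK1 at 1.07 and 0.54, each on the other side of 0 from its first-hour change. IL11 was at 0.26 and 0.36. IER3 was at -0.50 and then -1.43, JUNB at -0.15 and -0.81. TM4SF1 was at -1.07 and -1.35 and TNFSF15 at -1.31 and -1.98, lower at each later time.

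**Figure D5:**
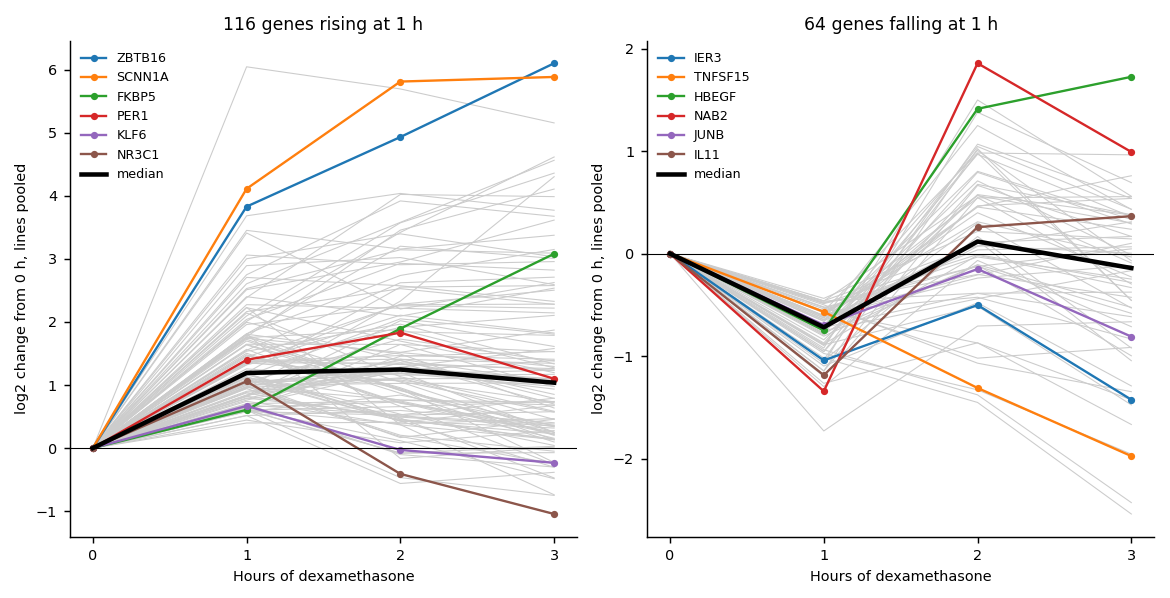
Each grey line is a first-hour gene's log2 change from 0 h (lines pooled) at 1, 2 and 3 h of dexamethasone, for the 116 rising (left) and 64 falling genes (right), with named genes in colour and the median in black. The rising median stays between 1.04 and 1.25, and the falling median returns from -0.72 to 0.12 at 2 h.

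At the edge of the call, CRABP2, a retinoic acid binding protein that fell by 0.61 on the log2 scale, and the rising noncoding RNA LINC01618 were among those nearest to the threshold, with a largest adjusted p inside it of 0.0496, and the smallest outside was 0.0502. Exons of 45 of the 180 genes (25%) overlap a gene on the other strand, against 36.6% of tested genes. The counts of these 45 are uncertain where counting did not use strand. They include IL24, with 41.6% of its exon bases over FCMR, and PLAU over C10orf55. Of the 31-base stretches of LINC01618 transcripts 40.0% occur in another gene, so its counts are uncertain as well.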

How the data were processed

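4sU-seq libraries of U2OS cells were used, 6 at 0 h and 6 at 1 h of dexamethasone, with the 12 later libraries for description only. Per the labels and the methods, the authors handled unique molecular identifiers with UMI-tools 1.1.2, trimmed with Trim Galore 0.6.6, aligned to hg38 with STAR 2.7.3a, removed duplicates and counted with featureCounts on GENCODE release 39. The deposited values are raw counts of deduplicated reads over exons per gene, and their use of strand is stated by the title of the deposited table alone. Groups came from the labels.

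Genes were filtered with filterByExpr (minimum count 10, minimum total 15), leaving 22479 of 61533, and fitted with edgeR 4.0.16 (TMM factors, glmQLFit and glmQLFTest, two-sided, line as block) in R 4.3.3. Adjustment covered all tested genes. CPM were TMM-scaled. Symbols and positions came from GENCODE 44, matching 99.7% of identifiers. Alternatives included DESeq2 1.42.0, limma-voom 3.58.1, other scalings and filters, and each library left out. The scripts were tested on simulated data. At the totals of 8106036 to 15820806, 0 counts over 6 libraries allow up to 3. Counting intervals cover counting error only.

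The comparison, its members and the gene lists were chosen with earlier results of these data known. Named genes were the 15 rising and 10 falling genes with the smallest p that moved the same way in each line, the 6 rising and 4 falling with the largest change at a mean of at least 1 CPM, and examples from each list. Other genes were named after their values were seen.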

Additional observations from a re-analysis of the deposited data

Results flagged for a closer look

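In the search for single libraries far from the others of their time, 108 sets of 6 libraries were examined for the named genes and the library totals, and 2 stood out by Dixon's ratio, where chance alone gives about 1 in 20. ADPRHL1 was at 44.2 CPM in wt 1 h replicate 1, against 82.2 to 102 CPM in the other 1 h libraries, and that library was still above every 0 h library. PLAU was at 152 CPM in Ctrl 0 h replicate 1, against 57.3 to 79.6 CPM in the other 0 h libraries, and its call was lost without that library.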

How the results depend on the processing

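Counts of called genes moved with the processing, while each of the 180 kept the sign of its pooled change in the alternatives that tested it. Without a low-count filter 287 genes rose and 466 fell (281 and 448 alike in each line), with group means of all 24 libraries 156 fell (155 alike), with DESeq2 157 fell, and at a log2 change of at least 1 there were 77 and 13. Replicate 1 alone gave 2995 and 3812 (2946 and 3734 alike), replicate 2 alone 47 and 2, and leaving out wt 42 and 3 or SoF 32 and 0. With 1 library left out there were 69 to 241 rising and 11 to 432 falling genes (69 to 240 and 11 to 432 alike), 4 to 16 in wt, 7 to 16 in SoF and 2 to 9 in Ctrl. In a single line, no filter gave 241 (wt), 141 (SoF) and 25 (Ctrl) genes and DESeq2 50 (wt) and 33 (SoF). The cause was not tested. No fit called a difference between lines, but so conservative a test says little on whether the lines share a response. With 1 library left out, 51 of the 116 rising and 56 of the 64 falling genes lost the call in at least 1 fit. Depth limits genes under 1 CPM.

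The replicate numbers were not treated as pairs, since deviations of the same number at 0 h and 1 h correlated at 0.065 (wt), 0.394 (SoF) and 0.075 (Ctrl). Between lines at 0 h they correlated at 0.416 to 0.601, a hint from the data, not the design. The replicate block of line by number gave 169 rising and 138 falling genes, and replicate number alone 175 and 150 (34 in wt, 38 in SoF), with all 180 genes kept in both.

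Among the named genes, 5 changed sign, none of them called. CCN1 was at 0.005 with total counts, 0.009 with upper quartiles, 0.004 without wt and 0.002 with replicate 1 alone, and with 1 library left out at -0.093 to 0.073, with 0.002 without wt 1 h replicate 1. MT-CO1 was at 0.056 without wt, 0.031 with replicate 2 alone and, with 1 library left out, at -0.126 to 0.023. MT-ND2 was at -0.037 without SoF, -0.026 without Ctrl, and with 1 library left out at -0.027 to 0.096, below 0 without SoF 0 h replicate 2, SoF 1 h replicate 1 (-0.025) or Ctrl 1 h replicate 1 (-0.003). SOCS4 was at -0.002 without wt and -0.062 with replicate 2 alone, where ID1 was at 0.009.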
